A study of Mus musculus with 9 samples.

Results

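Solute carriers are the membrane proteins that move amino acids, sugars, vitamins, ions, metals and organic acids into and out of cells and organelles, and their symbols give the family number after the letters Slc. They work as coupled transporters, exchangers or facilitators, most of them at the plasma membrane and a large family in the inner mitochondrial membrane. In the endothelium they set which solutes a vessel wall takes up or passes on, and in the membranes around the brain several of them also serve the exchange of solutes with cerebrospinal fluid. Of 284 genes with an Slc family symbol in a count table of 23018 genes, 182 had at least 50 counts in at least 3 of the 9 libraries, and these 182 are described here. They belong to 44 of the 47 families in the table. The members were thus chosen by their raw counts in these libraries, so their detection is a description and not a result.

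RNA was sequenced from lymphatic endothelial cells of 3 tissues, the meninges, the diaphragm and the skin, with 3 libraries for each. All mice were untreated wild-type C57BL/6 males aged 10 weeks, and the cells were sorted as CD45-, CD31+ and PDPN+ (podoplanin-positive). No group carries a transgene, a deletion or a treatment. The labels name no animal or pool behind a library, so each p-value measures only the spread between these libraries, which may be technical.

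Total counts per library ran from 26075366 to 34592850. Levels are CPM, counts scaled to a common library size, after scaling of the libraries by TMM, and the values of a tissue are given in the order of replicates 1, 2 and 3. Each of 10 lymphatic endothelial markers was detected in each tissue, although Ccl21a stayed at 0.156 to 1.35 CPM, and their summed level was 17464, 7195 and 12540 CPM in meninges, 15484 to 21246 CPM in diaphragm and 20826 to 21545 CPM in skin. Meninges replicates 2 and 3 stood apart by the summed markers of fibroblasts, bone and mural cells. The sum of 8 fibroblast markers was 1352, 7994 and 7824 CPM in meninges, 631 to 1416 CPM in diaphragm and 112 to 1058 CPM in skin. None of the 8 was at 0 in a whole tissue. Not each marker followed its sum. The fibroblast marker Dpt was at 1.75, 2.84 and 1.88 CPM in meninges and 71.2 to 105 CPM in diaphragm. The mural markers Kcnj8 and Myh11 were lowest in Meninges replicate 2 among the meningeal libraries. The sum of 10 markers of meningeal fibroblasts and arachnoid was 178, 495 and 476 CPM in meninges, 21.3 to 63.2 CPM in diaphragm and 56.9 to 170 CPM in skin. Of those 10, Alx4, Zic1, Zic4, Foxd1 and Crabp2 were at 0 in all diaphragm libraries, and Alx4, Zic4, Foxd1, Crabp2 and Aldh1a2 in all skin libraries. The sum of 6 bone and cartilage markers was 183, 926 and 597 CPM in meninges, at most 3.62 CPM in diaphragm and 0.271 to 71.1 CPM in skin, with Col2a1 at 0 in meninges, Bglap, Ibsp and Col2a1 in diaphragm, and Sp7, Bglap and Ibsp in skin. The sum of 8 mural cell markers, none at 0 in a whole tissue, was 527, 1096 and 1331 CPM in meninges, 298 to 499 CPM in diaphragm and 28.8 to 280 CPM in skin. Blood endothelial markers, 8 genes, summed to 2616, 1026 and 1438 CPM in meninges, 735 to 1586 CPM in diaphragm and 403 to 568 CPM in skin, where Esm1 and Apln were at 0. Aqp1 was the largest of the 8 in each meningeal library, at 1180, 535 and 752 CPM. Emcn and, against diaphragm, Cd34 ran against the sum. Emcn was at 135, 47.5 and 74 CPM in meninges, 167 to 206 CPM in diaphragm and 318 to 374 CPM in skin. Cd34 was at 36.6, 19 and 55.1 CPM in meninges and 61.7 to 119 CPM in diaphragm. Against skin, 3 of the 8 were called higher in meninges and Emcn lower, beside 0.748% and 0.573% of all genes tested. The sum of 6 choroid plexus markers was 495 to 580 CPM in meninges and at most 1.51 CPM elsewhere. Clic6, Otx2 and Kcne2 were at 0 in diaphragm, and Ttr, Folr1, Clic6, Otx2 and Kcne2 in skin. Calls of members that rest on the meningeal libraries are therefore also given for Meninges replicate 1 alone. In that fit the lone library is assumed to vary like the other tissues. In sorted bulk RNA, fewer cells of a type and less RNA per cell cannot be told apart.

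Of the 182 members, 6 passed edgeR's quasi-likelihood test in at least 1 comparison at an adjusted p under 0.05. These were 3 against diaphragm and 5 against skin, all higher in meninges, where 0.169% and 0.748% of all genes tested were called higher. The DNA just before the start site is printed for the 5 members among them that RefSeq's promoter table for GRCm38.p6 holds, so that their base composition and simple motifs can be seen beside their levels. Each window holds up to 250 bases before the start, cut back where it met an annotated exon, and is written 5′ to 3′ on the gene's strand. Capitals mark the GC box (GGGCGG), the CCAAT box (CCAAT), the TATA box (TATAAA) or the E-box (CACGTG), each searched on both strands. For Slc4a10 and Slc23a2, which have more than 1 RefSeq start, the most upstream window is shown.
Slc38a2: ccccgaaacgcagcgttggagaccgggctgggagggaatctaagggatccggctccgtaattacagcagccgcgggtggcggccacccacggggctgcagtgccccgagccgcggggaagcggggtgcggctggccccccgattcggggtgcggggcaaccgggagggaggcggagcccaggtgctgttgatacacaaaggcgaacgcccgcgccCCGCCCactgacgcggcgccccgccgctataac
Slc23a2: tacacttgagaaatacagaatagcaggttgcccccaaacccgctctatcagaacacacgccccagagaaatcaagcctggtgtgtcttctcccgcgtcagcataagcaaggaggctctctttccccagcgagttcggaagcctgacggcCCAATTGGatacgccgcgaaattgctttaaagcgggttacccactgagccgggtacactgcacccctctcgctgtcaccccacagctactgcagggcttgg
Slc4a10: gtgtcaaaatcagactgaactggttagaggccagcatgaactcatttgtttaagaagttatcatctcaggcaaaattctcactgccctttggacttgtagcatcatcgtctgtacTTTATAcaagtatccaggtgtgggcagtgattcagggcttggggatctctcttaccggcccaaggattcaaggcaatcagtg
Slc9a9: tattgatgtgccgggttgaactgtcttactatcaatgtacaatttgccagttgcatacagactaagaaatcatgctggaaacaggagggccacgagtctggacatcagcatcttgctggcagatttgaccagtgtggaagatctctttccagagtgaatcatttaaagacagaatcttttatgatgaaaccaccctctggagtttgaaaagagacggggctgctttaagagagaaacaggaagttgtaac
Slc31a1: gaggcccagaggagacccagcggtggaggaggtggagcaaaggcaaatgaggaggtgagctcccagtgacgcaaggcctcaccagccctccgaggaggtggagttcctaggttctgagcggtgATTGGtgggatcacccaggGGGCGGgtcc

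The Slc38a2 window (chr15:96699731-96699978, minus strand) was 72.2% G and C, with 30 CpG pairs and 1 GC box on the other strand. The Slc31a1 window (chr4:62360549-62360700, plus strand) was 64.5% G and C and held 1 GC box and 1 CCAAT box. The Slc23a2 window (chr2:132145321-132145570, minus strand) was 56% G and C and held a CCAAT box on each strand, and these overlap in 1 palindrome. The Slc4a10 window (chr2:62046265-62046461, plus strand) was 45.2% G and C with 1 TATA box on the other strand, and ends 53 bases before the start because an exon was cut away. The Slc9a9 window (chr9:94669642-94669891, plus strand) was 42.8% G and C and held none of the 4 motifs. The 5 windows thus differ widely in composition. RefSeq held windows for 138 of the 182 members, 186 in all, with a median of 60.4% G and C against 52.4% over all 32851 windows. A GC box occurred in 59.7% of the member windows and 32.7% of all windows, an E-box in 12.9% and 6.02%, a CCAAT box in 33.3% and 33.9%, and a TATA box in 8.07% and 12.4%. The members were chosen by their level and the genes of all windows were not. These differences therefore cannot be laid to solute carriers rather than to well-detected genes. A match describes the letters only.

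The rule turns on a gene's count in its library of rank 3. Just inside it stood Slc38a3 with a count of 50 there, and Slc25a13 and Slc39a12, both at 52. Just outside it stood Slc52a3 at 49, Slc25a53 at 47 and Slc19a2 at 46. Of the 102 Slc genes that did not reach the rule, 70 still had at least 50 counts in some library, and the highest single count among them was 6558, for the neuronal amino acid transporter Slc6a17 in Meninges replicate 2. The filter on low values left 26 of these 102 in the test, and all 182 members. By family number, 32 members fell to amino acids and peptides, 35 to the mitochondrial carriers, and 26 each to metals and heme and to monocarboxylates, organic ions and bile acids. Members that match the symbol pattern but are no transporters are the scaffold proteins Slc9a3r1 and Slc9a3r2, Slc4a1ap, Slc7a6os and the pseudogene Slc2a4rg-ps. Counts of near-identical copies, such as the adenine nucleotide translocases Slc25a4 and Slc25a5 and their pseudogenes, are uncertain, since how reads matching several places were counted is not stated.

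More members were detected in the meningeal libraries, as were more genes in general. At 50 counts or more stood 150, 153 and 163 members in meninges, 137, 130 and 135 in diaphragm, and 125, 151 and 121 in skin. Members without a single count numbered 10, 7 and 6 in meninges, 30, 26 and 19 in diaphragm, and 35, 19 and 30 in skin. The library of Skin replicate 2 overlapped the meningeal libraries in the first measure, and no diaphragm library did. Of all 12861 genes under the same level rule, 86.2% to 87.7% were at 50 counts or more in the meningeal libraries, 77% to 81.1% in diaphragm and 70.3% to 80.7% in skin, beside 82.4% to 89.6%, 71.4% to 75.3% and 66.5% to 83% of the members. Genes in general thus showed the same order of tissues. Detection was uneven within a tissue: 30 members had a diaphragm library at 0 beside another at 50 or more, 30 did so in skin and 10 in meninges. Only 70 members reached 50 counts in all 9 libraries.

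**Figure D1:**
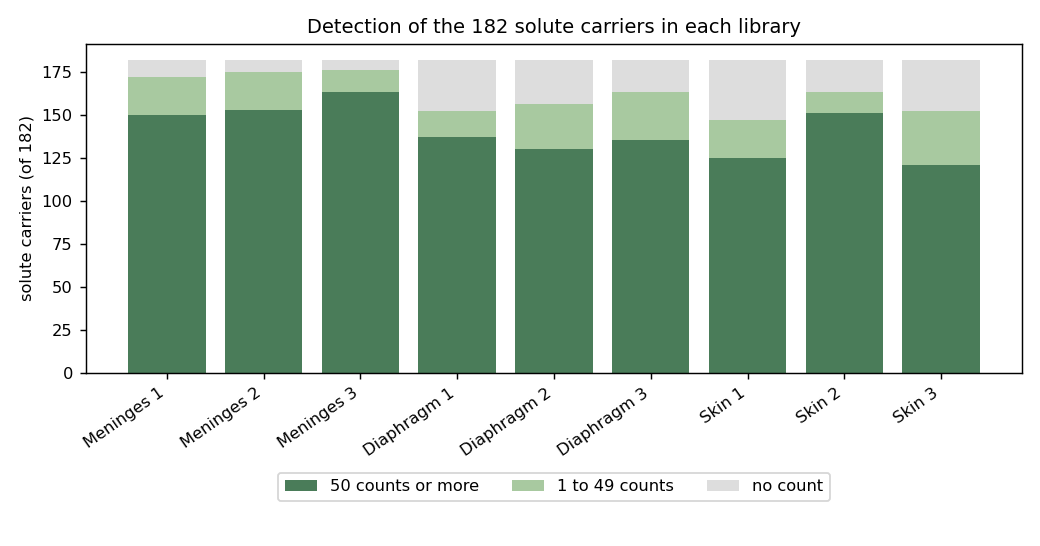
Number of the 182 members with 50 counts or more, with fewer counts and with no count (stacked bars) in each of the 9 libraries. Meningeal libraries hold 150 to 163 members at 50 counts or more, against 130 to 137 in diaphragm and 121 to 151 in skin.

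Together the members took 0.962% ± 0.159 of all counts in meninges, against 0.596% ± 0.053 in diaphragm and 0.581% ± 0.022 in skin (n = 3 each, SD), and the lowest meningeal library, at 0.780%, lay above the highest of the other 6, at 0.654%. The mitochondrial ribosomal RNAs took 17.3% ± 6.1, 23.8% ± 5.0 and 29.4% ± 2.1 of counts in the same order, so the share was also computed without them. It was then 1.16% ± 0.13 in meninges, 0.783% ± 0.054 in diaphragm and 0.824% ± 0.045 in skin, again without overlap between meninges and the others. After TMM the members summed to 7158, 8930 and 9405 CPM in meninges, 5515 to 6288 CPM in diaphragm and 6123 to 7485 CPM in skin. On that scale meninges and skin overlapped, with Meninges replicate 1 below Skin replicate 3. Members could pass the level rule through meninges, so neither the sums nor the shares are support for a difference of the set. An exact permutation test of 3 libraries against 3 cannot go below p = 0.10, so no test was made of these shares.

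Amino acid transporters had a higher summed level in meninges than in the other tissues, through Slc38a2 and Slc6a6. The 32 members summed to 2163, 3265 and 3680 CPM in meninges, 1682, 1466 and 1388 CPM in diaphragm, and 1798, 1516 and 1669 CPM in skin. Each meningeal library exceeded each library of the other tissues. These 2 members together made up nearly all of the difference between the means of meninges and diaphragm, and all of that against skin. The sums averaged 3036, 1512 and 1661 CPM in meninges, diaphragm and skin. In that order Slc38a2 averaged 1188, 321 and 326 CPM and Slc6a6 averaged 775, 127 and 223 CPM. Within meninges both were lowest in Meninges replicate 1. There the marker sums of fibroblasts, bone and mural cells were also lowest and that of blood endothelium highest.

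Slc38a2, a sodium-coupled transporter of small neutral amino acids that cells induce when amino acids are scarce or the medium is hypertonic, was at 881, 1247 and 1437 CPM in meninges, 282, 432 and 250 CPM in diaphragm, and 222, 370 and 385 CPM in skin. The lowest meningeal library was above the highest of the other 6. The log2 fold change was 1.89 (SE 0.34, edgeR adjusted p = 0.0296) against diaphragm and 1.87 (SE 0.34, edgeR adjusted p = 0.0159) against skin. Both comparisons use the same meningeal libraries. Against diaphragm the call was lost without Diaphragm replicate 1 (edgeR adjusted p = 0.119), Diaphragm replicate 3 (0.147), Meninges replicate 2 (0.0888) or Meninges replicate 3 (0.158), and against skin without Meninges replicate 3 (0.0722) or Skin replicate 1 (0.0671). For Meninges replicate 1 alone the log2 fold changes were 1.45 and 1.41 and neither passed, and over all alternatives the adjusted p ran from 0.000143 to 0.830 against diaphragm and from 9.32e-05 to 0.474 against skin.

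Slc6a6, the taurine transporter, was at 226, 1029 and 1069 CPM in meninges, 113, 81.4 and 186 CPM in diaphragm, and 240, 245 and 185 CPM in skin. Meninges replicates 2 and 3 were far above all other libraries, while Meninges replicate 1 lay within the range of skin. Its log2 fold change against diaphragm, 2.61 (SE 0.52), did not pass (edgeR adjusted p = 0.0580), nor did 1.79 (SE 0.51) against skin (adjusted p = 0.125). The library with the low value is the one with the low sums of fibroblast, bone and mural markers, and the part of those cells' RNA in the difference was not tested.

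Other amino acid carriers had their own patterns, none past the threshold. Slc43a3, which despite its family number is known as a purine base transporter, ran the other way at 154, 79.7 and 103 CPM in meninges against 388, 309 and 257 CPM in diaphragm and 423, 214 and 378 CPM in skin. Its meningeal libraries lay below all others, with a log2 fold change of -1.59 (SE 0.39, edgeR adjusted p = 0.0721) against skin. Slc6a4, the serotonin transporter, had no count in any skin library and was at 75.6, 26.5 and 17.4 CPM in diaphragm and 0, 1.06 and 41.9 CPM in meninges. Slc7a5, the light chain of the large neutral amino acid exchanger, was at 33.4, 20.5 and 26.3 CPM in meninges and 0, 1.74 and 6.95 CPM in diaphragm. Its skin values of 0.232, 52.4 and 71.7 CPM enclosed those of meninges and overlapped those of diaphragm. Slc3a2, the heavy chain that carries Slc7a5 to the cell surface, was among the least variable members at 147, 157 and 118 CPM in meninges, with 177, 74.5 and 162 CPM in diaphragm and 193, 104 and 54.5 CPM in skin. Slc38a1, a relative of Slc38a2, was at 36.7, 58.4 and 102 CPM in meninges and 0, 8.73 and 0 CPM in skin, but its diaphragm libraries ran from 0 to 78.5 CPM.

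Sugar and inositol carriers showed no called member, and their summed level overlapped between the tissues, at 328 to 372 CPM in meninges, 387 to 525 CPM in diaphragm and 263 to 564 CPM in skin. Slc5a3, the sodium-coupled myo-inositol transporter that responds to hypertonic stress, separated skin from the rest. It was at 36.2, 110 and 104 CPM in meninges, 136, 53.0 and 106 CPM in diaphragm, and 6.11, 15.2 and 18.5 CPM in skin. All skin libraries lay below all others, yet the difference did not pass (diaphragm against skin log2 fold change 2.89, SE 0.70, edgeR adjusted p = 0.159, and meninges against skin 2.66, SE 0.69, adjusted p = 0.0860). Slc45a3, named prostein for its prostate expression, was at 115, 26.6 and 68.1 CPM in meninges, 104, 202 and 75.4 CPM in diaphragm, and 113, 302 and 149 CPM in skin, with overlap throughout. Slc45a4, of the same family, was at 12.3 to 46 CPM in meninges, 46 to 157 CPM in diaphragm and 27.6 to 116 CPM in skin.

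Among the vitamin carriers 1 member was called, the sodium-coupled transporter of ascorbic acid Slc23a2. It stood at 114, 368 and 481 CPM in meninges, 105, 55.4 and 69.9 CPM in diaphragm, and 46.4, 65.7 and 30.4 CPM in skin. The lowest meningeal library was only just above the highest diaphragm library, and clear of skin. Against skin the log2 fold change was 2.76 (SE 0.56, edgeR adjusted p = 0.0283), and against diaphragm 2.06 (SE 0.55, adjusted p = 0.193). The call against skin was lost without Meninges replicate 2 (edgeR adjusted p = 0.0994), Meninges replicate 3 (0.155), Skin replicate 1 (0.0910) or Skin replicate 3 (0.114), in the fit with 2 tissues only (0.0569) and with limma voom (0.0972). For Meninges replicate 1 alone the log2 fold change was 1.24 (adjusted p = 0.945), and over all alternatives the adjusted p ran from 8.89e-05 to 0.945. As with Slc6a6, the level was highest in the libraries with high sums of fibroblast, bone and mural markers, and the part of those cells' RNA was not tested. The thiamine transporter Slc19a3 was at 4.41, 3.78 and 3.96 CPM in meninges and 15.3, 16.7 and 39.8 CPM in skin. These libraries did not overlap, but with diaphragm at 0 to 4.24 CPM and a log2 fold change of -2.56 (SE 1.80, edgeR adjusted p = 0.632) the difference did not pass. Slc19a1, the reduced folate carrier, ran from 0.501 to 40.2 CPM over the 9 libraries.

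Carriers of organic ions and monocarboxylates included a gene seen in 1 tissue only. Slc47a1, a proton-coupled exporter of organic cations, was at 46.7, 55.8 and 83.6 CPM in meninges, with no count in any of the 6 other libraries. Taking 3 counts summed over a tissue as the floor, it was at least 10.72 higher on the log2 scale than in diaphragm and at least 10.55 higher than in skin, with edgeR adjusted p = 0.0216 and 0.0110. It entered the set only through its meningeal libraries and so had to differ. The call against diaphragm was lost without Diaphragm replicate 3 (edgeR adjusted p = 0.0514), Meninges replicate 2 (0.0845) or Meninges replicate 3 (0.153), and the call against skin without Meninges replicate 3 (0.0681). For Meninges replicate 1 alone neither passed (edgeR adjusted p = 0.588 and 0.300, in ranges over all alternatives of 5.40e-14 to 0.588 and 8.84e-14 to 0.300). The gene was nonetheless present at 46.7 CPM in that library.

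Slc47a2, of the same family, was at 2.22, 4.81 and 5.95 CPM in meninges and likewise had no count elsewhere. Slc13a4, a sodium-coupled sulfate transporter, was at 5.07, 33.9 and 52.1 CPM in meninges and at 0 in the other 6 libraries. Slc41a2, a magnesium transporter, was at 3.82, 20.8 and 2.96 CPM in meninges, 0, 1.02 and 1.68 CPM in diaphragm and 0 in skin. These 3 did not pass against either tissue (edgeR adjusted p of 0.0621 to 0.795), and together with Slc47a1 they are all of the members that reached 50 counts in libraries of a single tissue. No member did so in diaphragm alone or in skin alone. In the other direction Slc4a11, of the bicarbonate transporter family, and Slc10a4, of the bile acid transporter family, had no count in any meningeal library. Slc4a11 was at 8.77, 34.2 and 4.94 CPM in diaphragm.

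Within the monocarboxylate transporter family the levels of 2 members were ordered in opposite ways, neither past the threshold. Slc16a9 was at 31.3, 19.3 and 69.7 CPM in meninges, 0, 12.5 and 1.75 CPM in diaphragm and 0.658, 5.52 and 15.4 CPM in skin. Its meningeal libraries lay above all others, and the log2 fold changes of 3.08 (SE 1.78) and 2.48 (SE 1.73) did not pass (edgeR adjusted p = 0.654 and 0.626). Slc16a12, which carries creatine, was nearly missing from meninges, at 5.60, 0.281 and 2.25 CPM, and stood at 22.6, 54.8 and 38.4 CPM in diaphragm and 47, 44.6 and 66.2 CPM in skin. Its libraries did not overlap, and the log2 fold changes were -3.83 (SE 1.07, edgeR adjusted p = 0.223) and -4.28 (SE 1.09, adjusted p = 0.0781). Slc10a6, a transporter of sulfated steroids, was at 42.4, 17.5 and 45.1 CPM in meninges, 56.3, 57.1 and 39.5 CPM in diaphragm and 68.4, 116 and 114 CPM in skin.

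Carriers of bicarbonate and other anions summed to 556, 326 and 421 CPM in meninges, 272, 143 and 166 CPM in diaphragm, and 163, 128 and 218 CPM in skin, without overlap between meninges and the others. Within meninges the sum was highest in Meninges replicate 1. Slc4a10, a sodium-driven bicarbonate transporter known from neurons and the choroid plexus, was at 223, 73.7 and 131 CPM in meninges, had no count in diaphragm, and was at 15, 5.80 and 0.0457 CPM in skin. It was at least 11.92 higher on the log2 scale in meninges than in diaphragm (edgeR adjusted p = 0.0186). Only 2 skin libraries and no diaphragm library had 50 counts or more, so it entered the set only with its meningeal libraries. Its difference from diaphragm is therefore no independent support, however stable the call. Against skin the log2 fold change was 4.36 (SE 1.34, edgeR adjusted p = 0.181), although the libraries did not overlap.

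The call of Slc4a10 against diaphragm held without each of the 9 libraries in turn and in all 8 other alternatives, with edgeR, DESeq2 or limma voom adjusted p between 6.46e-15 and 0.0497. Among these was the fit for Meninges replicate 1 alone. The gene was highest in that library, where the sums of fibroblast, bone and mural markers were lowest. Blood endothelial markers summed highest there, at 2616 CPM. The 6 choroid plexus markers summed to 495 to 580 CPM in the meningeal libraries, mostly through transthyretin (Ttr) at 510, 529 and 429 CPM. Kl was at 18.8, 10.7 and 51 CPM there, and Folr1 at 2.50, 0 and 0 CPM. The part of these cell types in the level of Slc4a10 was not tested. Slc26a7, a chloride and bicarbonate exchanger, was at 26.7, 41.9 and 51 CPM in meninges and had no count in diaphragm. In skin it was at 0, 2.52 and 0 CPM, and it did not pass (edgeR adjusted p = 0.146 and 0.291). It too needed its meningeal libraries to pass the level rule.

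Of the other anion carriers, Slc26a2, which brings in sulfate, was at 99.6, 89.7 and 141 CPM in meninges, 24.1, 24.4 and 6.27 CPM in diaphragm and 27.4, 55.0 and 97.5 CPM in skin. Meninges and diaphragm did not overlap (log2 fold change 2.59, SE 0.71, edgeR adjusted p = 0.210). Slc4a4, an electrogenic sodium bicarbonate cotransporter, was almost missing from skin at 0, 0.447 and 0 CPM, beside 54.9, 22.4 and 24.4 CPM in meninges and 55.5, 7.80 and 1.61 CPM in diaphragm. The skin libraries lay below all others, and the difference from meninges did not pass (log2 fold change 7.78, SE 2.08, edgeR adjusted p = 0.0969). Slc4a2, the widespread anion exchanger, was among the least variable members over the 9 libraries, at 23.7 to 31 CPM in meninges, 7.91 to 37 CPM in diaphragm and 25.7 to 35.8 CPM in skin.

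**Figure D2:**
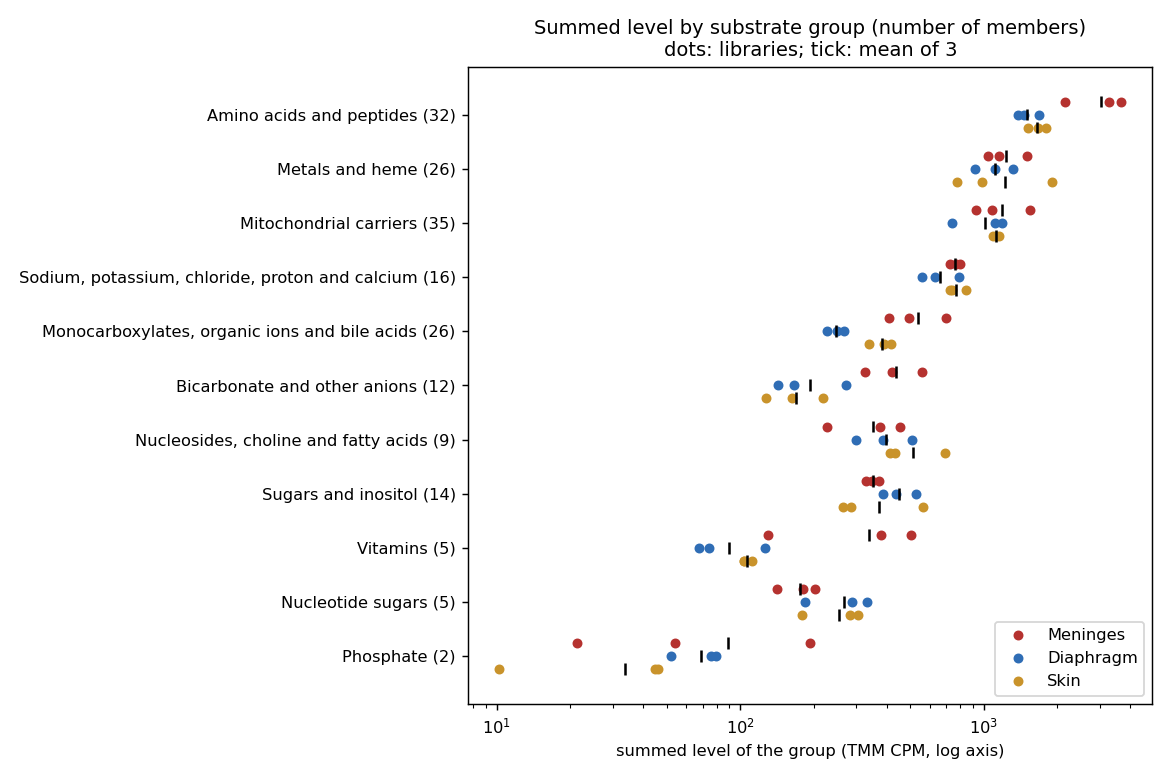
Summed level of the members of each substrate group in each library (TMM CPM, log axis), with the number of members in brackets; dots are libraries and the tick is the mean of 3. The meningeal dots of amino acid carriers, bicarbonate and other anion carriers and vitamin carriers lie above those of both other tissues. In that order they lie at 2163 to 3680, 326 to 556 and 130 to 502 CPM. The vitamin sum is mostly Slc23a2, at a mean of 321 of 337 CPM in meninges. Its lowest meningeal dot, at 130 CPM, is just above the highest diaphragm dot, at 127 CPM. Of the 5 vitamin members, 2 were higher in meninges than in diaphragm without overlap and 0 lower. Of all genes tested, 10.4% were higher and 6.7% lower in that way. Against skin the vitamin members were 1 and 2, beside 12.9% and 7.34% of all genes. So few members cannot tell the group from genes in general. The sums include the members that are no transporters.

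The 16 members in the families of sodium, potassium, chloride, proton and calcium carriers summed to 726 to 799 CPM in meninges, 559 to 789 CPM in diaphragm and 727 to 845 CPM in skin, with overlap. Without the scaffold proteins Slc9a3r1 and Slc9a3r2 the 14 carriers summed to 457, 665 and 565 CPM in meninges, 425, 321 and 440 CPM in diaphragm, and 366, 449 and 314 CPM in skin, and the lowest meningeal library was then above the highest of the other 6. Slc9a9, the sodium and proton exchanger of recycling endosomes, was called against skin. It was at 93.6, 125 and 84.7 CPM in meninges, 17.5, 55.6 and 9.35 CPM in diaphragm, and 1.47, 9.21 and 0.960 CPM in skin. The tissues did not overlap, with meninges highest and skin lowest. Against skin the log2 fold change was 4.70 (SE 1.07, edgeR adjusted p = 0.0497), against diaphragm 1.88 (SE 0.95, adjusted p = 0.557), and diaphragm against skin 2.82 (SE 0.98, adjusted p = 0.339). The call, already at the threshold, was lost without Meninges replicate 1 (edgeR adjusted p = 0.0831), Meninges replicate 2 (0.165), Meninges replicate 3 (0.123), Skin replicate 1 (0.142) or Skin replicate 3 (0.134), in the fit with 2 tissues only (0.0602) and with limma voom (0.0795). For Meninges replicate 1 alone the log2 fold change was 4.57 and the adjusted p 0.485, in a range over all alternatives of 1.07e-05 to 0.485.

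The scaffold protein Slc9a3r2, which tethers transporters to the cytoskeleton, was at 305, 134 and 140 CPM in meninges, 163, 238 and 349 CPM in diaphragm and 373, 278 and 531 CPM in skin. Slc8a1, the sodium and calcium exchanger of muscle and vessels, was highest in diaphragm at 51.3, 24.8 and 41.9 CPM, with 0.0313, 18 and 0.132 CPM in meninges and 6.58, 8.97 and 2.06 CPM in skin. Its diaphragm libraries overlapped neither tissue and it did not pass (edgeR adjusted p = 0.728 and 0.584). Skeletal muscle markers, 10 genes, were likewise highest in diaphragm, where they summed to 594, 1112 and 419 CPM. They summed to 22.8 to 49.2 CPM in meninges, where Ckm, Myh4, Pax7, Myf5 and Myod1 were at 0. In skin they summed to 73.7 to 269 CPM, with Des and Myf5 at 0. Mesothelial markers, 6 genes, summed to 1194, 41 and 86.3 CPM in diaphragm. They summed to at most 3.44 CPM in meninges and 0 in skin, where all 6 were at 0. In meninges Msln, Upk3b, Muc16, Wt1 and Lrrn4 were at 0. The part of either cell type in the level of Slc8a1 was not tested.

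Metal carriers overlapped between the tissues in sum, at 1047 to 1501 CPM in meninges, 924 to 1316 CPM in diaphragm and 780 to 1902 CPM in skin. The copper importer Slc31a1 stood at 165, 135 and 184 CPM in meninges, 34.3, 55.4 and 67.8 CPM in diaphragm, and 25.9, 35.3 and 11.8 CPM in skin. The lowest meningeal library was above the highest of the other 6, and the level in Meninges replicate 1 lay between those of replicates 2 and 3. Against skin the log2 fold change was 2.72 (SE 0.57, edgeR adjusted p = 0.0329), and against diaphragm 1.62 (SE 0.55, adjusted p = 0.329). The call was lost without Meninges replicate 1 (edgeR adjusted p = 0.0840), Meninges replicate 2 (0.0920), Meninges replicate 3 (0.155), Skin replicate 1 (0.0981) or Skin replicate 3 (0.102), and in the fit with 2 tissues only (0.0522). For Meninges replicate 1 alone the log2 fold change was as large, at 2.73, and did not pass (adjusted p = 0.575, range over all alternatives 2.99e-05 to 0.575). Its relative Slc31a2, which acts on copper inside the cell, was at 236, 141 and 288 CPM in meninges, 66.9, 186 and 157 CPM in diaphragm and 48.5, 26.1 and 186 CPM in skin, and overlapped between all tissues.

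Slc41a1, a magnesium exporter, was lowest in meninges at 43.9, 66.4 and 89.9 CPM, with 79.8, 166 and 230 CPM in diaphragm and 208, 163 and 367 CPM in skin. The meningeal and skin libraries did not overlap, and the log2 fold change of -1.88 (SE 0.50) did not pass (edgeR adjusted p = 0.0969). Slc30a7, which loads zinc into the Golgi, was at 45.9 to 93.4 CPM in meninges, 98.4 to 198 CPM in diaphragm and 35.3 to 127 CPM in skin. Slc30a9 was among the least variable members, between 17.4 and 96.2 CPM over all libraries. The phosphate importer Slc20a1 was at 9.70 to 21.8 CPM in meninges, 34.8 to 63.4 CPM in diaphragm and 7.59 to 42 CPM in skin. The other phosphate importer, Slc20a2, was at 3.41 to 171 CPM in meninges, 12.3 to 44.4 CPM in diaphragm and 2.65 to 11.9 CPM in skin.

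Carriers of nucleosides, choline and fatty acids, of nucleotide sugars and of the mitochondrial inner membrane had no called member. The choline transporter Slc44a1 was at 84.2, 143 and 123 CPM in meninges, 46.4, 173 and 127 CPM in diaphragm and 61.3, 82.9 and 125 CPM in skin, among the steadiest of all. Its relative Slc44a2 was at 57.5 to 194 CPM in meninges, 63.6 to 274 CPM in diaphragm and 153 to 437 CPM in skin. Slc29a1, the equilibrative nucleoside transporter, was at 34.3 to 41.7 CPM in meninges and spread more in the other tissues. Slc35a3, which brings UDP-N-acetylglucosamine into the Golgi, was at 65.9 to 94.0 CPM in meninges, 54.9 to 152 CPM in diaphragm and 72.9 to 131 CPM in skin.

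The 35 mitochondrial carriers took 14.1% ± 3.8 of the summed member CPM in meninges, with 16.7% ± 2.9 in diaphragm and 17.2% ± 2.3 in skin (n = 3 each, SD), which differ by less than their spread. Slc25a3, the mitochondrial phosphate carrier needed for ATP synthesis, was the least variable named member, at 185, 190 and 166 CPM in meninges, 100, 148 and 110 CPM in diaphragm and 125, 205 and 83.9 CPM in skin. Slc25a4, the adenine nucleotide translocase of heart and muscle, owed its high meningeal mean to 1 library, with 143, 546 and 144 CPM there, 57.8, 90.2 and 136 CPM in diaphragm and 72.5, 169 and 218 CPM in skin. Slc25a36, a carrier of pyrimidine nucleotides, ran from 37.1 to 257 CPM within skin alone. Slc25a16, among the most variable members, reached 177 CPM in Skin replicate 1 and at most 36.7 CPM elsewhere. Slc22a5, the carnitine transporter, reached 121 CPM in Skin replicate 1 and at most 21.7 CPM elsewhere. Both owed their spread to that single library.

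**Figure D3:**
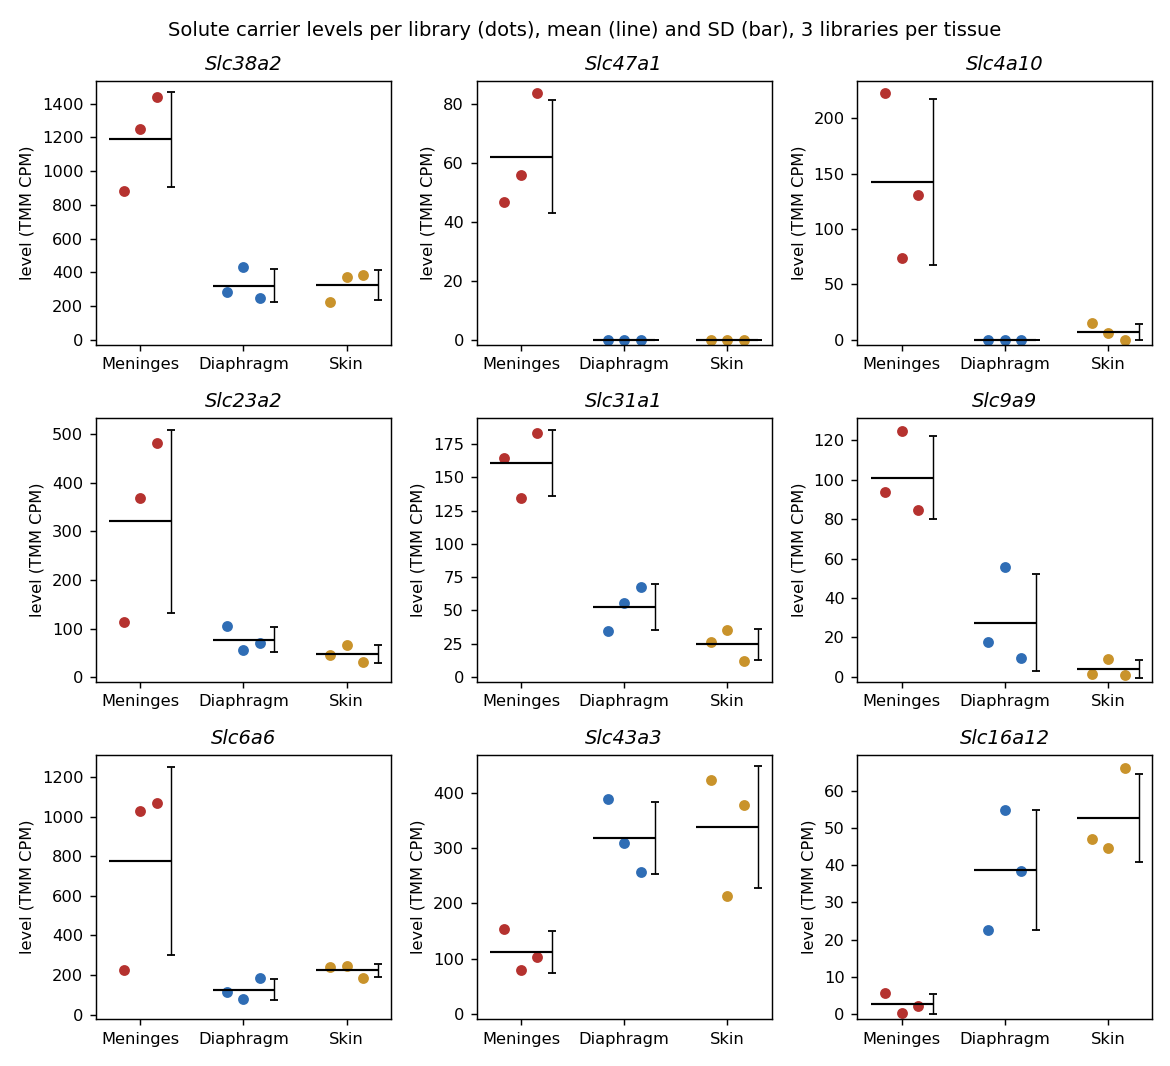
Level (TMM CPM) of the 6 called members and of Slc6a6, Slc43a3 and Slc16a12 by tissue; dots are libraries, lines means and bars the SD of 3 libraries. Slc38a2 lies at 881 to 1437 CPM in meninges against 222 to 432 CPM elsewhere, and Slc47a1 has counts in the meningeal libraries only.

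Counted over all members, edgeR called 3 of 182 higher in meninges than in diaphragm (Slc38a2, Slc4a10 and Slc47a1), where 0.169% of all 14831 genes tested were called higher, and 0 lower, where 0.175% were. Against skin it called 5 higher (Slc38a2, Slc47a1, Slc23a2, Slc31a1 and Slc9a9), with 0.748% of all genes called higher, and 0 lower, with 0.573% called lower. The members could pass their level rule through the tissue in which they are high, so these counts are no support for a difference of the set. Between diaphragm and skin edgeR called 0 higher and 0 lower (background 0.0337% and 0.00674%).

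Other rules called more. At an unadjusted edgeR p under 0.05, meninges had 21 members above and 8 below the diaphragm level (background 6.01% and 4.05% of all genes), 26 above and 13 below the skin level (8.93% and 4.9%), and diaphragm had 16 above and 12 below the skin level (6.82% and 4.97%). DESeq2 called 15 and 3 against diaphragm (background 2.76% and 1.51%), 20 and 7 against skin (5.14% and 2.39%), and 11 and 8 between diaphragm and skin (3.49% and 2.02%). limma voom called 7 and 1 (background 0.762% and 0.587%), 8 and 1 (1.71% and 1.08%), and 0 and 0 (0% and 0.00674%) in the same order.

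Without Diaphragm replicate 3, Meninges replicate 2 or Meninges replicate 3 the count higher than in diaphragm fell from 3 to 1, and for Meninges replicate 1 alone it was 1. The count higher than in skin was 2 without Meninges replicate 2, 0 without Meninges replicate 3, 1 without Skin replicate 1, 2 without Skin replicate 3, and 0 for Meninges replicate 1 alone.

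The median log2 fold change of the members was 0.28 against diaphragm and 0.26 against skin, beside 0.05 and 0.08 over all genes tested, and -0.16 between diaphragm and skin, beside 0.01. Libraries did not overlap, with meninges higher, for 40 members against diaphragm, or 22% beside 10.4% of all genes tested, and for 33 against skin, or 18.1% beside 12.9%. With meninges lower there were 12, or 6.59% beside 6.7%, and 14, or 7.69% beside 7.34%. Between diaphragm and skin 13 did not overlap with diaphragm higher, or 7.14% beside 7.54%, and 10 with diaphragm lower, or 5.49% beside 5.95%. The lower counts and both counts between diaphragm and skin were thus near the background. Among genes that pass the same rule of 50 counts in 3 libraries, the shares with meninges higher were 9.93% and 12.6%. Members could pass that rule through meninges, so the shares with meninges higher are no support for a difference of the set.

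In 18 members, 9.89%, all meningeal libraries were above all 6 others, beside 4.19% of genes under the same level rule. Some of the 18, such as Slc47a1, Slc47a2, Slc13a4 and Slc41a2, passed that rule only through meninges. The share is therefore no support for a difference of the set. Besides the 6 called members these include the cationic amino acid transporter Slc7a2, the lactate transporter Slc16a1, Slc16a9, Slc26a7 and Slc13a4. The 4 members with all meningeal libraries below all others were Slc43a3, Slc39a14, Slc25a5 and Slc16a12, or 2.2% beside 2.44%. Slc39a14, an importer of zinc and iron, was at 51, 38.6 and 14.4 CPM in meninges, 74.0, 104 and 71.8 CPM in diaphragm and 116, 108 and 150 CPM in skin (log2 fold change against skin -1.84, SE 0.56, edgeR adjusted p = 0.157).

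**Figure D4:**
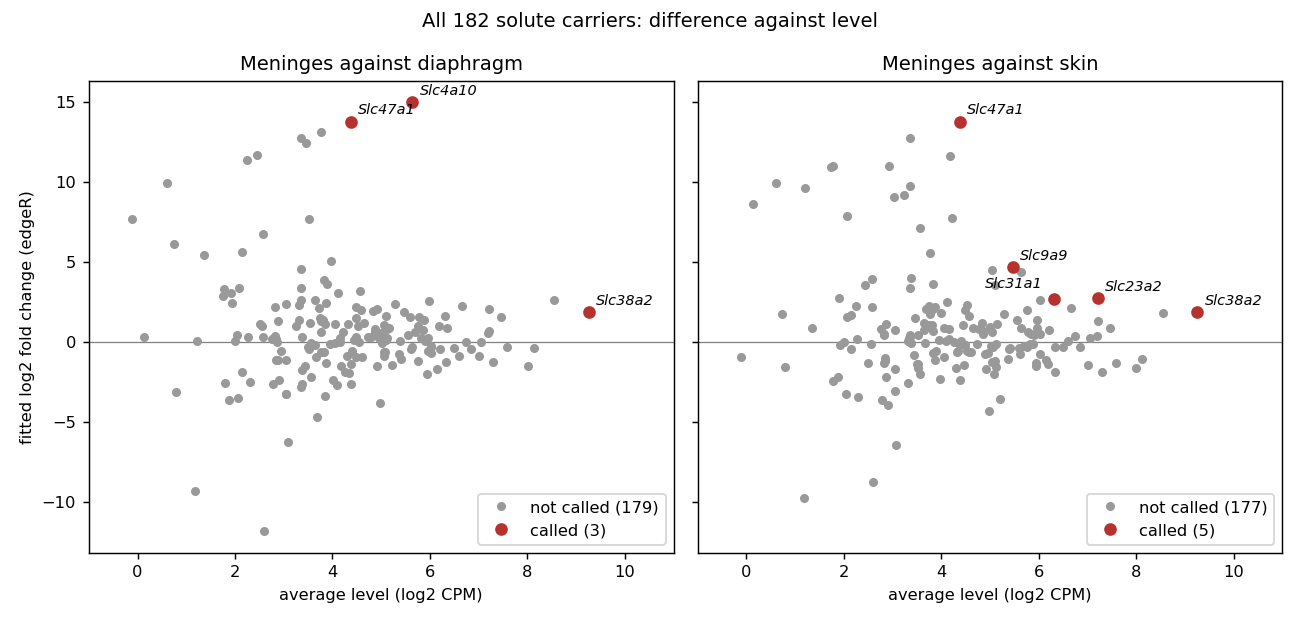
Fitted log2 fold change of meninges against diaphragm (left) and against skin (right) for each of the 182 members, against the average level (log2 CPM); called members are red and named. The 3 and 5 called members lie above the line of no difference, and the values beyond 10 belong to genes with no count in a tissue, for which the fitted value is no bound.

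Levels of different genes were compared per kilobase of exon. In meninges the highest were Slc38a2 at 134 CPM per kilobase, Slc25a4 at 118, Slc31a2 at 109 and Slc6a6 at 91.6, with a median over the members of 3.82. In diaphragm they were Slc9a3r2 at 94.5, Slc43a3 at 71.2 and Slc31a2 at 67.3, with a median of 3.31. In skin they were Slc9a3r2 at 149, Slc43a3 at 75.8 and Slc25a4 at 65.2, with a median of 3.59. The order of the leading members thus differed between the meninges and the other tissues, and Slc38a2, which led in meninges, stood at 36.3 CPM per kilobase in diaphragm and 36.8 in skin. A single list was also made of the 10 members with the highest average log2 CPM over all 9 libraries. These took 40.1% ± 6.4 of the members' summed CPM in meninges, with 29.3% ± 3.6 in diaphragm and 33.9% ± 3.3 in skin (n = 3 each, SD). Members such as Slc38a2, Slc6a6 and Slc23a2 could enter that list through their meningeal level. The higher share in meninges is therefore no support for a difference between the tissues.

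The median coefficient of variation of a member within a tissue was 57.8% in meninges, 90.2% in diaphragm and 86.9% in skin. The same figure over all genes at the same level rule was 60.4%, 74.3% and 79.9%.

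Transport genes outside the symbol pattern, a list of 26 chosen for their links to the carriers, were found for 23 and tested for 21. Emb, which encodes the accessory protein embigin that escorts monocarboxylate transporters to the membrane, was at 99.8, 116 and 80.6 CPM in meninges, 0.0369, 0 and 0 CPM in diaphragm and 2.09, 73.1 and 27.2 CPM in skin. It was the 1 gene of the list called higher in meninges than in diaphragm (edgeR adjusted p = 0.00511), and the 1 called lower in diaphragm than in skin. Of all genes tested, 0.169% and 0.00674% were so called. Bsg, which encodes the related escort basigin, was at 183, 179 and 189 CPM in meninges, 95.4, 131 and 149 CPM in diaphragm and 52.7, 97.3 and 105 CPM in skin, without overlap between meninges and the others, and did not pass against diaphragm (edgeR adjusted p = 0.80). Ucp2, an uncoupling protein of the same superfamily as the mitochondrial carriers, was at 58.7, 18.1 and 35.4 CPM in meninges, 378, 197 and 198 CPM in diaphragm and 172, 157 and 212 CPM in skin. It was the 1 gene of the list called lower in meninges, against diaphragm (log2 fold change -2.78, SE 0.50, edgeR adjusted p = 0.0289) and against skin. Of all genes tested, 0.175% and 0.573% were called lower in these comparisons. For Emb and Ucp2 no fit under the alternatives or for Meninges replicate 1 alone is given here.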

How the data were processed

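RNA was extracted with a PicoPure kit and amplified with the Ovation RNA-Seq System before sequencing, per the labels' protocols. The values are the deposited counts of reads per Ensembl gene, raw and unscaled, made by the authors with FastQC, STAR and HTSeq on the build mm9, per the submitters' processing notes. For the aligner and counter, versions, annotation and strand setting were not given in the sources used here, nor how reads matching several places were treated, so overlapping genes and near copies are uncertain.

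The members and gene lists were chosen with earlier results of these data known. Genes were named by the deposited symbol, or by Ensembl identifier from the GRCm38 annotation, which left 87 unnamed. edgeR 4.0.16 (R 4.3.3) fitted 1 mean per tissue to 9 libraries after filterByExpr (14831 genes) and TMM, and calls were made below 0.05 after Benjamini-Hochberg adjustment over all genes tested. Where a tissue had no count, the bound uses a floor of 3 counts over the group, which covers counting error only. The biological coefficient of variation was 1.243. On simulated counts of the meninges against diaphragm comparison, edgeR recovered 26 of 50 genes changed 32-fold, 14 of those changed 8-fold, 1 changed 4-fold and 0 changed 2-fold. For meninges against skin it recovered 27, 17, 2 and 0, and for diaphragm against skin 26, 10, 1 and 0. It called 5, 0 and 4 unchanged genes in the same order. Members named are the called ones, the 6 largest non-overlapping differences per comparison at an average log2 CPM of at least 4, the 3 most abundant of each substrate group, the 6 least and 6 most variable, those at the threshold and those seen in 1 tissue. Not all are printed, and some members are not reported here. Slc6a17, Slc26a7, Slc39a14, Slc4a11, Slc10a4, Slc7a2, Slc16a1 and Slc25a5, and Bsg among the other transport genes, were named after their values were seen. Exon length per gene is that of GENCODE M21 (GRCm38), though counting was on mm9. Alternatives were DESeq2 1.42.0, its size factors, limma 3.58.1 voom, a filter of 50 counts in 3 libraries, no filter at all, 2 tissues only, the replicate number as a block and each library left out. Tables and plots used Python 3.11.15, pandas 2.3.3 and matplotlib 3.10.9.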

Additional observations from a re-analysis of the deposited data

How the results depend on the processing

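Alternatives were run for the counts of called members and for the called members and those with the largest differences without overlap, 22 differences in all, and none of these 22 changed direction. The other named members were not refitted. Of the single-gene values under alternatives, 312 stayed on their side of the threshold, 19 passed it newly and 36 no longer passed it. Members called higher in meninges than in diaphragm, 3 in the fit reported, numbered 8 with no filter, 6 with 2 tissues only, 7 with limma voom, 15 with DESeq2, and 1 to 4 when 1 library was left out. Members called lower there, 0 in the fit reported, numbered 1 with limma voom and 3 with DESeq2, and 0 without any 1 library. Members called higher in meninges than in skin, 5 in the fit reported, numbered 14 with no filter, 3 with 2 tissues only, 8 with limma voom, 20 with DESeq2, and 0 to 7 when 1 library was left out. Members called lower there, 0 in the fit reported, numbered 3 with no filter, 1 with limma voom, 7 with DESeq2, and 0 to 1 when 1 library was left out. Between diaphragm and skin, 0 in each direction in the fit reported, 6 were called higher and 4 lower with no filter, 11 and 8 with DESeq2, and 0 and up to 1 when 1 library was left out. For Meninges replicate 1 alone against the other tissues, an alternative chosen after seeing the data, 1 member was higher than in diaphragm and 0 than in skin. The cause of these shifts was not tested. For alternatives other than the DESeq2 and limma voom tests, here and above, no share called over all genes is given. Their counts therefore cannot tell the members from genes in general.

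With the replicate number as a block, 3 and 5 members were called higher in meninges and 0 lower, and 0 between diaphragm and skin, so the block changed no count. The deviations of log CPM from the tissue mean were also correlated between libraries of different tissues. The correlation was -0.0205 to 0.0512 for libraries with the same number and -0.0565 to 0.0393 for others. Deviations from a mean of so few libraries cannot decide whether libraries with the same number share animals or a batch.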
